A study of Drosophila melanogaster with 15 samples.

Results

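Wild-type (w1118) males of Drosophila melanogaster that had lived alone (w1118 SH) were compared with w1118 males that had lived in groups (w1118 GH), using RNA-seq of the antenna, the main olfactory organ of the fly. The comparison takes the 6 libraries whose labels give a white-eyed line under isolation or group housing, 3 per condition, out of 15 in the series. Of 17490 counted genes, the 10358 that passed a filter on low counts were tested. It asks which antennal genes respond to the loss of social contact, and with it of the pheromones of other flies.

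Single-housed males were picked as pupae of 80 to 100 h, put into a vial each and kept there until 7 days of age. Group-housed males were collected after eclosion and kept for 7 days at 25 to 30 per vial. The stage at collection therefore differed along with the number of companions, and the effects of these cannot be told apart. All 6 libraries carry the w1118 allele of white, an eye-pigment transporter gene, and each was made from the third segments of 180 pooled antennae. The study calls its replicates biological, but the sources do not say at which hour the antennae were taken or whether replicates came from separate cultures. The p-values therefore measure only the spread between the libraries of the fit. The other groups in the fit were group-housed Or47b1, Or67dGAL4 and fruLexA/fru4-40 males, which lack a pheromone receptor or the male form of the transcription factor Fruitless. They are in genetic backgrounds other than w1118 and contribute 8 libraries, which serve here to estimate the spread between replicates and as values beside those of the wild type.

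The third antennal segment is covered by sensory hairs, each holding olfactory neurons with their support cells, which secrete odorant-binding proteins and enzymes that break down odorants. Neurons carrying Or47b or Or67d detect fly-derived compounds and tune male courtship and aggression to the presence of other males. Juvenile hormone and biogenic amines are known to modulate the sensitivity of such neurons, and genes for their synthesis and turnover are also active in the antenna itself.

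Total counts on genes ranged from 9902717 to 14908299 over the 6 libraries, and a signal of 3 counts, used here as a floor, was worth 0.2012 to 0.3029 CPM. The antenna was recovered as labelled. RPKM is here the TMM-normalised CPM divided by the exon length of the gene in kilobases. The 20 antenna markers summed to 24730, 27920 and 26320 RPKM in w1118 GH. In w1118 SH they summed to 30930, 32040 and 28790 RPKM, and 0 of the 20 were higher on average in w1118 GH. Orco, the co-receptor of the Or family, stood at 1352 to 1426 RPKM in w1118 GH and at 1521 to 1641 RPKM in w1118 SH. The library of w1118 GH replicate 2 stood apart. Its 55 testis markers summed to 632 RPKM against 64.1 to 73.5 RPKM in the other 5 libraries, and its 33 muscle markers to 1268 RPKM against 792 to 904 RPKM. Results are therefore given with and without it. Whole antennae hold many cell types, and in such bulk samples a smaller number of cells of a type and less RNA per cell cannot be told apart.

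Calls are those of edgeR throughout, where no other tool is named. With it, the level of 103 genes differed between w1118 SH and w1118 GH at an adjusted p under 0.05 (0.994% of the genes tested). Levels rose in w1118 SH for 71 of them (0.685%) and fell for 32 (0.309%). The w1118 SH and w1118 GH libraries were apart, with no overlap, in all 103, and in 22.0% of all genes tested. The genes that rose and those that fell differed in level and size of change. Those that rose had a median of 31.0 RPKM in w1118 GH and a median log2 fold change of 0.59, with a range from 0.28 to 3.21. Those that fell had a median of 5.01 RPKM in w1118 GH, against 12.97 RPKM over all genes tested, and a median log2 fold change of -2.53. In w1118 SH, 18 of the 32 that fell were under 1 RPKM on average, and 0 of the 71 that rose. Only 7 of the 71 increases exceeded 2-fold, against 23 of the 32 decreases. At an unadjusted p under 0.05 there were 1638 of the 10358 genes, 709 higher and 929 lower in w1118 SH.

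Without w1118 GH replicate 2 the test called 41 genes of 10261 (0.400%), 29 higher and 12 lower in w1118 SH, and 36 of these were among the 103. Each of the 103 kept its direction, which groups without overlap leave little room to change. The count also moved with each other library left out. It was 5 without w1118 GH replicate 3, 7 without w1118 SH replicate 2, 55 without w1118 SH replicate 3, 215 without w1118 SH replicate 1 and 144 without w1118 GH replicate 1. MtnB, amd, Dtwd2, CG31288 and CG16743 were the 5 genes called in each of these fits, all of them higher in w1118 SH, and CG16743 was picked out here after its values were seen. Members of gene lists named in the following that missed the threshold, such as jhamt or MtnA, were likewise chosen for mention with their values known.

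**Figure D1:**
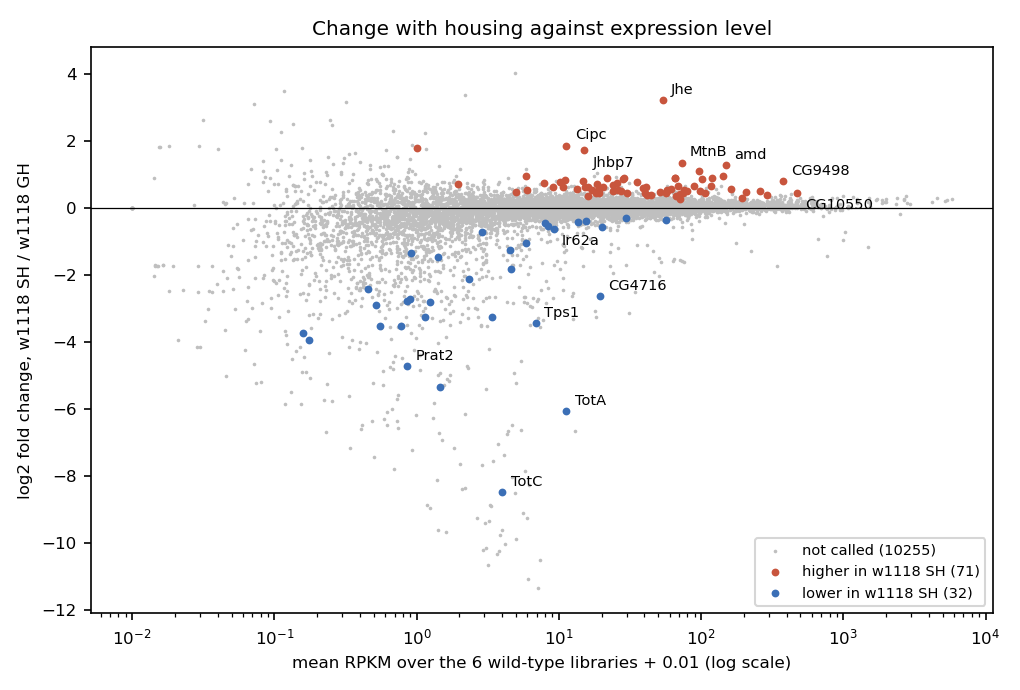
Log2 fold change of w1118 SH over w1118 GH (vertical axis) against the mean RPKM of the 6 wild-type libraries on a log axis, with a point for each of the 10358 tested genes; red and blue points are the 71 genes that rose and the 32 that fell at an adjusted p under 0.05. Most increases lie above 10 RPKM and within 1 log2 unit of 0, while the decreases spread to low levels and to log2 changes as far as -8.49.

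Genes linked to juvenile hormone gave the largest increase. Jhe (FBgn0010052, chromosome 2R, bases 16119793 to 16122773) encodes juvenile hormone esterase, which inactivates the hormone in the hemolymph. It stood at 7.90, 16.9 and 6.71 RPKM in the w1118 GH replicates and at 22.6, 136 and 131 RPKM in those of w1118 SH. The groups did not overlap, but w1118 SH replicate 1 lay nearer to w1118 GH than to the other single-housed libraries. The log2 fold change was 3.21 ± 0.58 (SE, adjusted p = 0.023), and 3.72 (adjusted p = 0.040) without w1118 GH replicate 2. Jhbp7 (FBgn0039297, chromosome 3R, bases 25237614 to 25238895), a member of the takeout family of secreted carriers of small hydrophobic molecules, measured 6.52, 7.06 and 7.34 RPKM in w1118 GH and 17.5, 28.0 and 24.0 RPKM in w1118 SH. Its w1118 GH libraries lay within 1 RPKM of each other, and all single-housed values were more than 2-fold higher. Its log2 fold change was 1.73 ± 0.24 (adjusted p = 0.0092).

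Of 18 tested genes for juvenile hormone metabolism and response, Jhe alone was called with edgeR, 3 with DESeq2 (Jhe, Jheh3 and Est-6) and 4 with limma voom, and the median log2 fold change of the list was 0.07 against 0.00 for all genes. The synthetic enzyme jhamt had a log2 fold change of 0.31 (adjusted p = 0.16), the hormone-degrading epoxide hydrolase Jheh3 of 0.31 (adjusted p = 0.10), and Kr-h1, a direct target of the hormone receptor, of 0.24 (adjusted p = 0.56). Of 19 tested genes of the takeout family, Jhbp7 alone was called with edgeR or DESeq2 (2 with limma voom) and the median was 0.06. The call of Jhe was lost without w1118 GH replicate 1, w1118 GH replicate 3, w1118 SH replicate 2 or w1118 SH replicate 3 (adjusted p up to 0.11), and that of Jhbp7 without w1118 GH replicate 3 or w1118 SH replicate 2 (up to 0.070). Jhe also stands in the list of fat body markers, which was lower in w1118 SH on the whole: its 16 tested members had a median log2 fold change of -0.70, or -0.82 without w1118 GH replicate 2, and 4 were lower and 1, Jhe itself, higher at an unadjusted p under 0.05.

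Of 58 tested genes on the list of ecdysone and EcKL genes, 4 rose and 0 fell, and DESeq2 called 5. All 4 belong to the EcKL family, named for an ecdysteroid kinase of insects that phosphorylates the moulting hormone. CG31288 was at 74.0, 90.1 and 84.9 RPKM in w1118 GH and at 125, 169.8 and 169.9 RPKM in w1118 SH, a log2 fold change of 0.90 ± 0.12 (adjusted p = 0.0061). CG9498 was at 267, 301 and 259 RPKM and at 393, 551 and 487 RPKM, a log2 fold change of 0.79 ± 0.12 (adjusted p = 0.013). Both were lowest, among the single-housed libraries, in w1118 SH replicate 1, which still lay above each group-housed library. CG13659 was at 15.5, 16.7 and 15.98 RPKM and at 24.5, 25.3 and 24.8 RPKM (log2 fold change 0.63 ± 0.10, adjusted p = 0.014). CG10550 was at 417, 391 and 388 RPKM and at 493, 603 and 551 RPKM (log2 fold change 0.46 ± 0.08, adjusted p = 0.020).

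CG31288, CG13659 and CG10550 lie near each other on chromosome 3R between bases 25297960 and 25308391 of dm6, with 1334 bases between the first pair and 4090 between the second. Within the latter stretch lie 2 further EcKL genes that were not called, CG31370 (log2 fold change 0.05, adjusted p = 0.87) and CG31436 (0.22, adjusted p = 0.22). The median log2 fold change over the 58 members was -0.03. Uncalled EcKL genes reached as low as -0.94 for CG18765 and -0.98 for CG11892. Over the whole list, uncalled members ranged from -3.21 for Cyp18a1 (adjusted p = 0.099) to 1.62 for pkm (adjusted p = 0.34). Cyp18a1 was at 0.149 to 0.527 RPKM in w1118 GH and at 0 to 0.0803 RPKM in w1118 SH. CG31288 kept its call whichever wild-type library was left out. The calls of CG9498 and CG13659 were lost without w1118 GH replicate 3 or w1118 SH replicate 2 (adjusted p up to 0.079), and that of CG10550 also without w1118 GH replicate 2 (0.074) or w1118 SH replicate 3 (up to 0.11 over the 4).

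Of 26 tested genes for amine synthesis and amine receptors, 2 rose and 0 fell. amd (FBgn0000075, chromosome 2L, bases 19110154 to 19114110) encodes an enzyme related to Dopa decarboxylase that acts on L-DOPA in the cuticle. It measured 89.5, 92.3 and 80.7 RPKM in w1118 GH and 169, 267 and 203 RPKM in w1118 SH, with a mean of 213 ± 50.03 RPKM (SD, n = 3) in the latter. ple encodes tyrosine hydroxylase, which makes L-DOPA and is rate-limiting for dopamine. It measured 66.6, 76.9 and 65.0 RPKM in w1118 GH and 88.4, 124 and 114 RPKM in w1118 SH. Neither gene had a group-housed library that reached the lowest single-housed library, w1118 SH replicate 1 in both. The log2 fold changes were 1.28 ± 0.14 (adjusted p = 0.0020) for amd and 0.65 ± 0.13 (adjusted p = 0.033) for ple. That of ple was 0.73 (adjusted p = 0.053) without w1118 GH replicate 2, and its call was lost without any library other than w1118 SH replicate 1 (adjusted p up to 0.15).

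The other enzymes of the dopamine pathway were not called. Ddc, Dopa decarboxylase, was at 2.64, 3.45 and 6.25 RPKM in w1118 GH and at 1.96, 1.75 and 3.997 RPKM in w1118 SH, and these ranges overlap. Pu, which makes the cofactor of tyrosine hydroxylase, had a log2 fold change of -0.03 (adjusted p = 0.91). The median of the 26 genes was -0.09.

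MtnB (FBgn0002869), 1 of 6 metallothionein genes, which encode small cysteine-rich proteins that bind copper and cadmium, rose with the lowest adjusted p of all genes tested. It was at 38.2, 43.4 and 41.9 RPKM in w1118 GH and at 89.2, 122 and 104 RPKM in w1118 SH. The lowest single-housed value was above 2 times the highest group-housed value, and the log2 fold change was 1.36 ± 0.11 (adjusted p = 0.00012). MtnA was at 75.3, 78.6 and 82.5 RPKM and at 131, 107 and 112 RPKM, also without overlap, but missed the threshold with a log2 fold change of 0.57 ± 0.13 (adjusted p = 0.056). The remaining tested members, MtnD, MtnE and MtnF, had log2 fold changes of -0.09, 0.04 and 0.26. Of 27 tested genes for metal transport and the metal-responsive factor MTF-1, 0 passed at an adjusted p under 0.05 with edgeR and 2 with DESeq2. At an unadjusted p under 0.05 there were 5, against 1638 of all 10358 genes, and their list had a median log2 fold change of 0.05.

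MtnB lies on chromosome 3R at bases 20503102 to 20503746, and its neighbour 1042 bases away is Or92a, an odorant receptor of neurons in large basiconic sensilla that respond to food odours. Or92a was at 178, 182 and 164 RPKM in w1118 GH and at 219, 248 and 257 RPKM in w1118 SH. It rose by a log2 fold change of 0.47 ± 0.09 (adjusted p = 0.028; 0.061 without w1118 GH replicate 2). It was the only odorant receptor called out of 43 tested with edgeR or DESeq2 (2 with limma voom), and their median log2 fold change was 0.08. Or47b was at 121 to 133 RPKM in w1118 GH and 130 to 152 RPKM in w1118 SH, and Or67d at 71.6 to 76.6 and 69.9 to 90.1 RPKM. The ranges of both pheromone receptors overlapped between housing conditions.

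Ir62a, an ionotropic receptor gene, was the only gene of the Or and Ir lists called lower with edgeR. It was at 10.9, 11.6 and 10.8 RPKM in w1118 GH and at 7.98, 7.56 and 6.23 RPKM in w1118 SH, with a log2 fold change of -0.62 ± 0.11 (adjusted p = 0.018). Of 27 tested Ir genes edgeR called 0 higher, with 2 higher at an unadjusted p under 0.05, and the median was 0.09. Ir93a, a co-receptor for temperature and humidity sensing, had a log2 fold change of 0.52 (adjusted p = 0.053) and was called by DESeq2. Among ion channels other than pickpocket channels, pain alone was called of 51 tested with edgeR, while DESeq2 called 4 and limma voom 6. Their median log2 fold change was -0.14, and 10 were lower and 6 higher at an unadjusted p under 0.05, against 929 and 709 of all 10358 genes. pain encodes a TRPA channel for noxious heat and touch, and was at 31.1, 29.5 and 32.4 RPKM in w1118 GH and at 35.4, 52.7 and 52.4 RPKM in w1118 SH. Its log2 fold change was 0.59 ± 0.12 (adjusted p = 0.035). Its exons overlap those of NaCP60E, and the libraries do not keep the strand, so its reads cannot be fully assigned. The calls of Or92a and Ir62a were lost without w1118 GH replicate 2 or 3 or w1118 SH replicate 2 or 3 (adjusted p up to 0.12 and 0.079), and that of pain without any library other than w1118 SH replicate 1 (up to 0.17).

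Obp84a was the odorant-binding protein gene called among 31 tested with edgeR, while DESeq2 called 4. It was at 66.2, 66.5 and 63.1 RPKM in w1118 GH and at 93.7, 93.3 and 93.5 RPKM in w1118 SH, with a log2 fold change of 0.52 ± 0.08 (adjusted p = 0.014). Its exons overlap those of Dtwd2 on chromosome 3R, between bases 7250725 and 7251750. Dtwd2, whose human namesake modifies transfer RNA, was at 25.3, 26.5 and 26.9 RPKM and at 45.9, 42.4 and 46.0 RPKM, with a log2 fold change of 0.77 ± 0.08 (adjusted p = 0.0010). Without strand, reads in the shared stretch cannot be given to either gene. The call of Obp84a was lost without w1118 GH replicate 3 or w1118 SH replicate 2 (adjusted p up to 0.079), and that of Dtwd2 in no such fit. The median of the 31 Obp genes was 0.17, or 0.27 without w1118 GH replicate 2, and 11 of them were higher and 2 lower in w1118 SH at an unadjusted p under 0.05. Among all 10358 genes 709 were higher and 929 lower at that level. DESeq2 also called 2 abundant members that were higher without overlap but missed the threshold with edgeR. Obp28a was at 2336 to 2547 RPKM in w1118 GH and 2836 to 3255 RPKM in w1118 SH (log2 fold change 0.35, adjusted p = 0.11 with edgeR), and Obp59a at 739 to 769 and 834 to 960 RPKM (0.29, adjusted p = 0.057). Its remaining call, Obp99c, was lower without overlap, at 5.43 to 20.9 RPKM in w1118 GH and 0.265 to 3.90 RPKM in w1118 SH (-2.72, adjusted p = 0.12 with edgeR). The 20 antenna markers, which include Obp28a and Obp59a, had a median log2 fold change of 0.17. Of these markers 8 were higher and 0 lower at an unadjusted p under 0.05. The part of this shift in the Obp values was not tested.

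dmGlut, a glutamate transporter, was the only gene called with edgeR among 48 tested for transmitter receptors, synthesis and transport, of which DESeq2 called 6. Their median log2 fold change was -0.24, and 8 were lower and 4 higher at an unadjusted p under 0.05, against 929 and 709 of all 10358 genes. dmGlut was at 18.5, 20.2 and 21.3 RPKM in w1118 GH and at 28.2, 40.2 and 43.3 RPKM in w1118 SH (log2 fold change 0.90 ± 0.14, adjusted p = 0.013). Glia carry several such transporters, and 14 glia markers summed to 1601 to 1714 RPKM in w1118 GH and to 1848 to 1974 RPKM in w1118 SH. Most of these sums was Gs2 alone, at 1085 to 1206 RPKM in w1118 GH and 1308 to 1432 RPKM in w1118 SH. Of 13 glia markers with a count, 5 were higher on average in w1118 GH, among them the glutamate transporter Eaat1 (log2 fold change -0.18, adjusted p = 0.72). The part of glia in the dmGlut values was not tested. Genes of xenobiotic metabolism that rose were GstD10, a glutathione transferase (log2 fold change 0.80 ± 0.16, adjusted p = 0.035), Cyp9h1, a cytochrome P450 (0.56 ± 0.12, adjusted p = 0.043), and Ugt301D1, a UDP-glycosyltransferase (0.44 ± 0.08, adjusted p = 0.027). Their lists held 56 tested UGT and GST genes, of which 2 rose, and 65 tested P450 genes, of which 1 rose. The medians of these lists were 0.13 and 0.01, and 0 members of either fell. PGRP-LB, an amidase that degrades bacterial peptidoglycan and dampens the immune response, was at 36.8, 35.2 and 36.4 RPKM in w1118 GH and at 42.6, 49.1 and 50.6 RPKM in w1118 SH. It was the only immune gene called of 40 tested with edgeR, against 2 with DESeq2 (log2 fold change 0.39 ± 0.08, adjusted p = 0.033). All of these calls except that of dmGlut were lost without w1118 GH replicate 2 (adjusted p from 0.060 to 0.13), and all were lost without w1118 GH replicate 3 or w1118 SH replicate 2 (up to 0.18).

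Cyp6a20, a P450 known from work on aggression to respond to social experience, was at 812, 838 and 821 RPKM in w1118 GH and at 759, 764 and 756 RPKM in w1118 SH. The groups did not overlap, but the log2 fold change of -0.12 ± 0.08 did not pass the test (adjusted p = 0.49). Irk2, an inwardly rectifying potassium channel, was at 67.5, 64.4 and 69.4 RPKM and at 87.9, 78.6 and 83.2 RPKM, also without overlap, with a log2 fold change of 0.31 ± 0.09 (adjusted p = 0.12).

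The remaining large increases included Cipc, which shares its name with a mammalian inhibitor of the clock protein CLOCK. It was at 4.41, 4.83 and 5.43 RPKM in w1118 GH and at 8.69, 19.6 and 24.8 RPKM in w1118 SH (log2 fold change 1.86 ± 0.32, adjusted p = 0.018; 0.058 without w1118 GH replicate 2). wdp, which encodes a cell surface proteoglycan, was at 50.5, 41.96 and 45.4 RPKM and at 53.2, 103 and 100.5 RPKM (0.89 ± 0.18, adjusted p = 0.036). In both genes w1118 SH replicate 1 lay closer than the others to the group-housed libraries. CG15822, CG18135 and CG12986 had log2 fold changes of 1.79, 0.95 and 0.97, and CG31272 of 0.83, with adjusted p between 0.0061 and 0.033. Without w1118 GH replicate 2, wdp (adjusted p = 0.11), CG18135 (0.053) and CG12986 (0.068) lost their call. Targ2 was at 61.7, 64.3 and 59.3 RPKM and at 91.0, 150.3 and 153 RPKM (1.09 ± 0.17, adjusted p = 0.014). Its exons on chromosome 3L overlap those of Targ1 and CG10512, which were called in the same direction at 0.52 and 0.87. Without strand the increases of these 3 genes may not be independent. Of the genes of this paragraph, those that kept their call without w1118 GH replicate 2 lost it without w1118 GH replicate 3, and all except CG31272 without w1118 SH replicate 2.

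**Figure D2:**
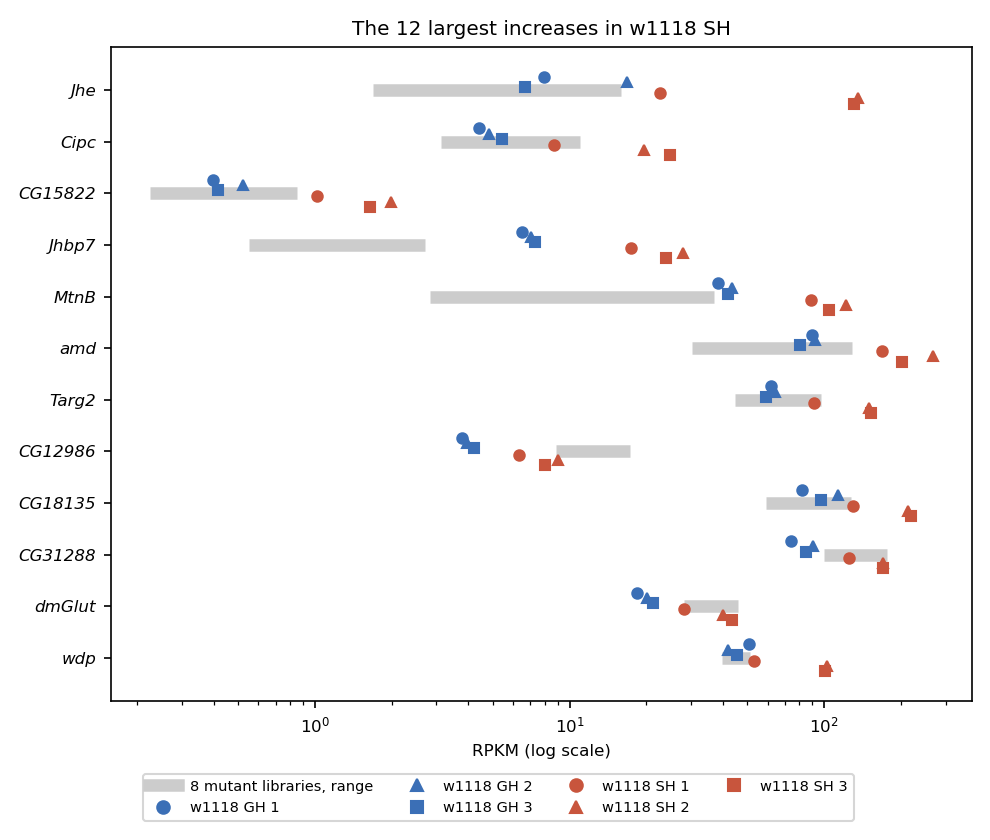
RPKM on a log axis of the 12 genes with the largest increases, with a symbol for each w1118 GH library (blue) and each w1118 SH library (red) and a grey bar from the lowest to the highest of the 8 group-housed mutant libraries. The 2 colours do not overlap in any row, and the red circle of w1118 SH replicate 1 is the leftmost red symbol in each.

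w1118 SH replicate 1 was the lowest of the 3 single-housed libraries for 49 of the 71 genes that rose, and for 3831 of all 10358 genes tested. Without it, the count of called genes was 215, of which 84 were among the 103. Clock genes varied between libraries of the same housing. tim, the partner of Period in the clock, was at 126, 63.6 and 147 RPKM in w1118 GH and at 89.04, 35.2 and 54.1 RPKM in w1118 SH. vri, a repressor of Clk, was at 44.5, 19.95 and 47.5 RPKM and at 49.2, 15.95 and 22.1 RPKM, and cry, the blue-light photoreceptor of the clock, at 137, 172 and 103 RPKM and at 182, 213 and 176 RPKM. w1118 SH replicate 1 was the highest single-housed library for tim and vri. Replicate 2 was the lowest library of both genes in w1118 GH and in w1118 SH, and the highest of cry in each group. Of 19 clock genes 0 were called with edgeR or DESeq2, 2 with limma voom, and 4 had an unadjusted p under 0.05, as had 1638 of all 10358 genes. The part of the hour of dissection in the increases was not tested.

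The genes that fell were led by the Turandot genes TotC and TotA, which encode small secreted proteins of the humoral stress response. TotC was at 3.67, 7.91 and 12.5 RPKM in w1118 GH and had 0 counts in each w1118 SH library, against 150 counts in w1118 GH. Against a floor of 3 counts in the smallest single-housed library this is at least 13.9-fold lower (adjusted p = 0.017). TotA was at 12.4, 20.6 and 33.9 RPKM in w1118 GH and at 0.153, 0 and 0.705 RPKM in w1118 SH (log2 fold change -6.07 ± 1.04, adjusted p = 0.018). TotA (FBgn0028396) and TotC (FBgn0044812) lie 1288 bases apart on chromosome 3R, at bases 20871036 to 20871700 and 20872988 to 20873580. Of the 2 other tested Turandot genes, TotX had a log2 fold change of -2.40 (adjusted p = 0.31) and TotM of -1.22 (adjusted p = 0.68). The mutants, also group-housed, spanned 0.356 to 126 RPKM for TotC and 0.792 to 162 RPKM for TotA, so that all 8 lay above the single-housed libraries, the lowest of them closely. The calls of both genes were lost without w1118 GH replicate 3 or w1118 SH replicate 2, and that of TotA also without w1118 SH replicate 3 (adjusted p up to 0.11). DESeq2 called TotC and TotA as well, but limma voom called 0 of the 4 tested Turandot genes.

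Among the genes that fell were Prat2, P5CS and Tps1, which encode metabolic enzymes. Prat2, which encodes the amidotransferase of the entry step of purine synthesis, was at 0.818, 1.70 and 2.38 RPKM in w1118 GH and at 0, 0.0477 and 0.114 RPKM in w1118 SH (log2 fold change -4.73 ± 0.71, adjusted p = 0.013). P5CS, the enzyme that opens proline synthesis, was at 1.05, 2.29 and 3.16 RPKM and at 0.265, 0.218 and 0.418 RPKM (-2.80 ± 0.58, adjusted p = 0.039). They were the 2 genes called among 22 tested for proline, purine and one-carbon enzymes, whose median was 0.01. Tps1, trehalose-6-phosphate synthase, which makes the blood sugar of insects, was at 7.66, 13.2 and 17.2 RPKM and at 0.0911, 0.489 and 2.74 RPKM (-3.44 ± 0.61, adjusted p = 0.020). Its exons overlap those of CG3652. It was called alone among 17 tested genes for amylases, maltases and sugar transport, of which DESeq2 called 4, and which had a median of -0.34, or -0.04 without w1118 GH replicate 2. P5CS missed the threshold without that replicate (adjusted p = 0.0996), and Prat2 and Tps1 without w1118 GH replicate 3 or w1118 SH replicate 2 (up to 0.11).

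CG4716 and CG10799 lie 440 bases apart on chromosome 2R and fell together. CG4716 was at 17.8, 30.4 and 53.1 RPKM in w1118 GH and at 3.09, 3.92 and 8.73 RPKM in w1118 SH (log2 fold change -2.64 ± 0.44, adjusted p = 0.017). CG10799 had 60 counts in w1118 GH and 1 in w1118 SH, a ratio of 53.2 with a 95% counting interval from 9.19 to 2136 (adjusted p = 0.017). Counts were as sparse for mmm (40 against 2, ratio 17.7, interval 4.598 to 152), CG5819 (34 against 2, ratio 15.1, interval 3.86 to 130) and CG13912 (31 against 2, ratio 13.7, interval 3.50 to 119), the last of which overlaps Trhn. Npc2g, of a family of sterol-binding proteins, Iris, which derives from a retroviral envelope gene and overlaps TBC1D23, CG2736 and phu had log2 fold changes of -3.25, -3.51, -3.25 and -2.91, with adjusted p between 0.027 and 0.044. Without w1118 GH replicate 2 these 4 genes, mmm and CG5819 had adjusted p between 0.071 and 0.13, while CG4716, CG10799 and CG13912 kept their call and lost it without w1118 GH replicate 3 or w1118 SH replicate 2 (up to 0.11).

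**Figure D3:**
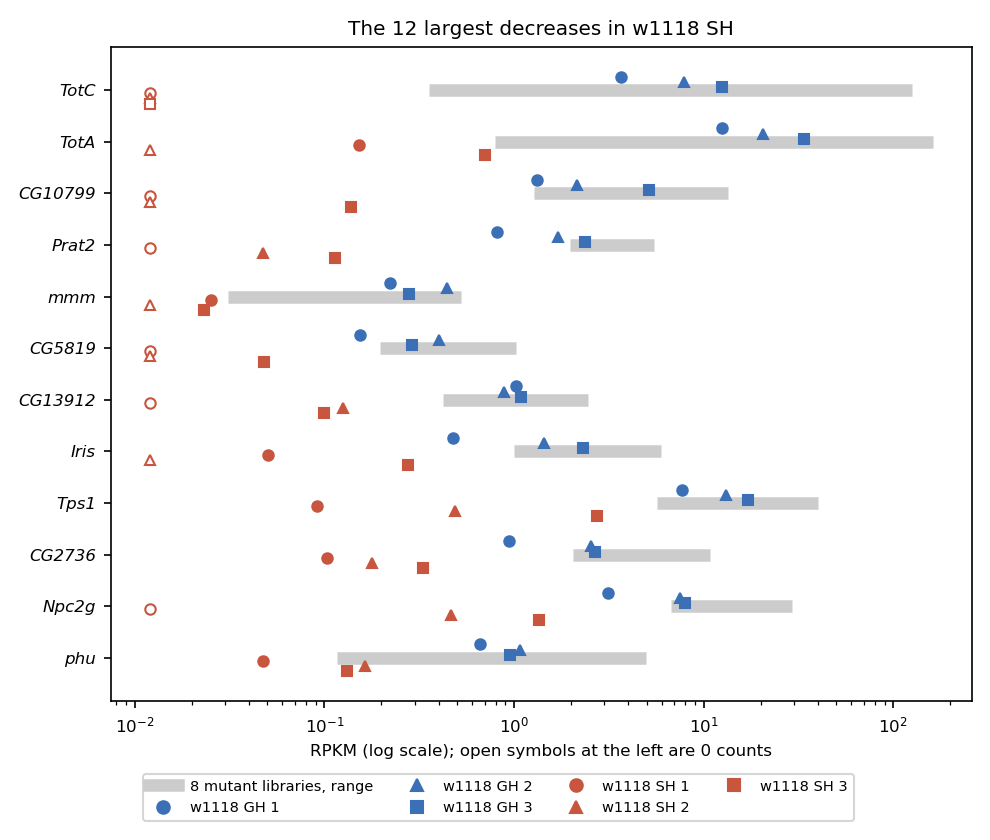
RPKM on a log axis of the 12 genes with the largest decreases, drawn as for the increases, with libraries at 0 counts as open symbols at the left edge. All 12 separate the w1118 GH libraries (blue) from the w1118 SH libraries (red), and in 11 of the 12 the lowest blue symbol is w1118 GH replicate 1.

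Levels of the genes that fell were uneven among the group-housed libraries. w1118 GH replicate 1 was the lowest of the 3 for 25 of the 32, against 3262 of 10358 genes tested, and replicate 2 or 3 was at least 1.5 times replicate 1 for 20 of the 32, against 1383 of all genes. Markers of some other tissues were also higher in w1118 GH, and those of others were not. The 25 eye markers summed to 147 to 158 RPKM in w1118 GH and to 154 to 160 RPKM in w1118 SH. Of those with a count, 9 of 23 eye markers and 12 of 19 accessory gland markers were higher on average in w1118 GH. The 42 gut markers, 15 of which had 0 counts in all 6 libraries, summed to 13.6, 18.0 and 36.6 RPKM in w1118 GH and to 8.18, 9.33 and 9.59 RPKM in w1118 SH, and 22 of 27 with a count were higher on average in w1118 GH. The 17 hemocyte markers summed to 108 to 144 RPKM in w1118 GH, lowest in replicate 1, and to 102 to 110 RPKM in w1118 SH. PPO2, prophenoloxidase of crystal cells, was at 1.02, 5.67 and 5.75 RPKM and at 0.233, 0.134 and 0.823 RPKM (adjusted p = 0.064).

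CG4716 is itself a fat body marker, and other fat body markers were lower too without being called. fon, a hemolymph clotting gene, was at 0.456, 3.28 and 3.41 RPKM in w1118 GH and at 0.156, 0.134 and 0.861 RPKM in w1118 SH (log2 fold change -2.56, adjusted p = 0.15), overlapping only in w1118 GH replicate 1. Gnmt and Apoltp had log2 fold changes of -2.82 (adjusted p = 0.21) and -1.53 (adjusted p = 0.16), apolpp of -0.77 (adjusted p = 0.41), and the most abundant member, Hmu, of -0.02. Muscle markers were higher on average in w1118 GH for 29 of 32 with a count, with sums of 792, 1268 and 904 RPKM against 815, 870 and 879 RPKM, and their median log2 fold change of -2.36 became -0.94 without w1118 GH replicate 2. Gad1, which makes the transmitter GABA, was at 0.0704, 2.89 and 5.23 RPKM in w1118 GH and at 0, 0 and 0.222 RPKM in w1118 SH (adjusted p = 0.16), and was named here after its values were seen. The part of RNA from other tissues in the decreases was not tested. Without w1118 GH replicate 2, 10 of the 32 kept their call, among them TotC, TotA, Prat2, CG10799, Tps1 and CG4716 (adjusted p from 0.040 to 0.048), and the median ratio of the log2 fold change without that library to that with it was 0.98. Without w1118 GH replicate 3 or w1118 SH replicate 2, 0 genes were called lower with edgeR, the only tool run on these subsets, where 1263 and 1232 genes had an unadjusted p under 0.05 in either direction.

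**Figure D4:**
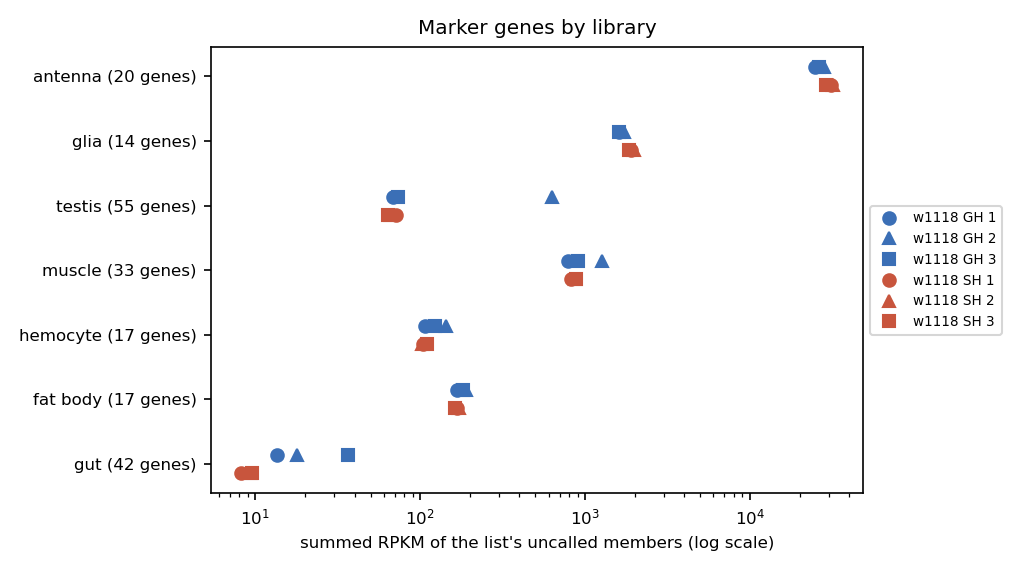
Summed RPKM on a log axis of marker genes of the antenna, glia, testis, muscle, hemocytes, fat body and gut in each w1118 GH library (blue) and w1118 SH library (red). The fat body markers Jhe and CG4716, which were called, and the eye and accessory gland lists are left out. Testis markers reach 632 RPKM in w1118 GH replicate 2 alone, and gut markers are highest in w1118 GH replicate 3, at 36.6 RPKM.

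A set of 16 genes that the study singled out on these samples was followed by name, so its counts are not independent evidence of a direction. For its overlaps between conditions the study used DESeq2 with an adjusted p under 0.01 after a Bonferroni correction for 4. At an adjusted p under 0.05 here, DESeq2 called all 16 and limma voom 11. With edgeR at that threshold, 10 of the 16 rose and 3 fell. Beside MtnB, amd, Jhbp7, Dtwd2 and Obp84a, those that rose were SP1029, an aminopeptidase gene (log2 fold change 0.74), CG31663 (0.44), CG15202 (0.42), CG14687 (0.38) and Tbc1d22, which encodes a protein with a Rab GTPase-activating domain and overlaps Sec15 (0.34). CG14687 was at 252, 248 and 254 RPKM in w1118 GH and at 329, 319.6 and 335 RPKM in w1118 SH. These 5 changed by less than 2-fold, and none had overlapping groups. All 5 lost their call without w1118 GH replicate 2 (adjusted p from 0.050 to 0.11). CG42369, Prat2 and P5CS fell, CG42369 by a log2 fold change of -2.13 (adjusted p = 0.039; 0.11 without w1118 GH replicate 2). CG15144, Dhc36C, a dynein heavy chain gene, and Amy-p, an amylase gene, were lower in each w1118 SH library than in any w1118 GH library but had adjusted p of 0.093, 0.083 and 0.098. Amy-p had 213 counts in w1118 GH and 1 in w1118 SH. wwk, named CG15270 in the study, was at 32.8, 33.2 and 33.1 RPKM and at 27.2, 26.6 and 26.01 RPKM (log2 fold change -0.31 ± 0.06, adjusted p = 0.038; 0.11 without w1118 GH replicate 2).

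Several groups showed no call in either direction at an adjusted p under 0.05 with edgeR. Of 15 pickpocket channels 1 had an unadjusted p under 0.05, of 26 CD36 family and CheA or CheB genes 3, and of 15 sex determination genes 0, and DESeq2 and limma voom called 0 in these lists as well. Of 36 neuropeptides and their receptors 11 had an unadjusted p under 0.05 and DESeq2 called 2, of 21 lipid and pheromone enzymes 5 and 1, of 34 activity-regulated and oxidative stress genes 8 and 3, and of 41 cuticle genes 7 and 2. Among all 10358 genes tested, 1638 had an unadjusted p under 0.05. Over the whole table DESeq2 called 347 genes, against 103. fru itself was at 3.96 to 4.62 RPKM in w1118 GH and 3.96 to 5.40 RPKM in w1118 SH. Dh44-R2, a receptor of the diuretic hormone Dh44, had the lowest adjusted p among the neuropeptide genes (0.068), at 2.59 to 3.11 RPKM in w1118 GH and 4.19 to 4.95 RPKM in w1118 SH.

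**Figure D5:**
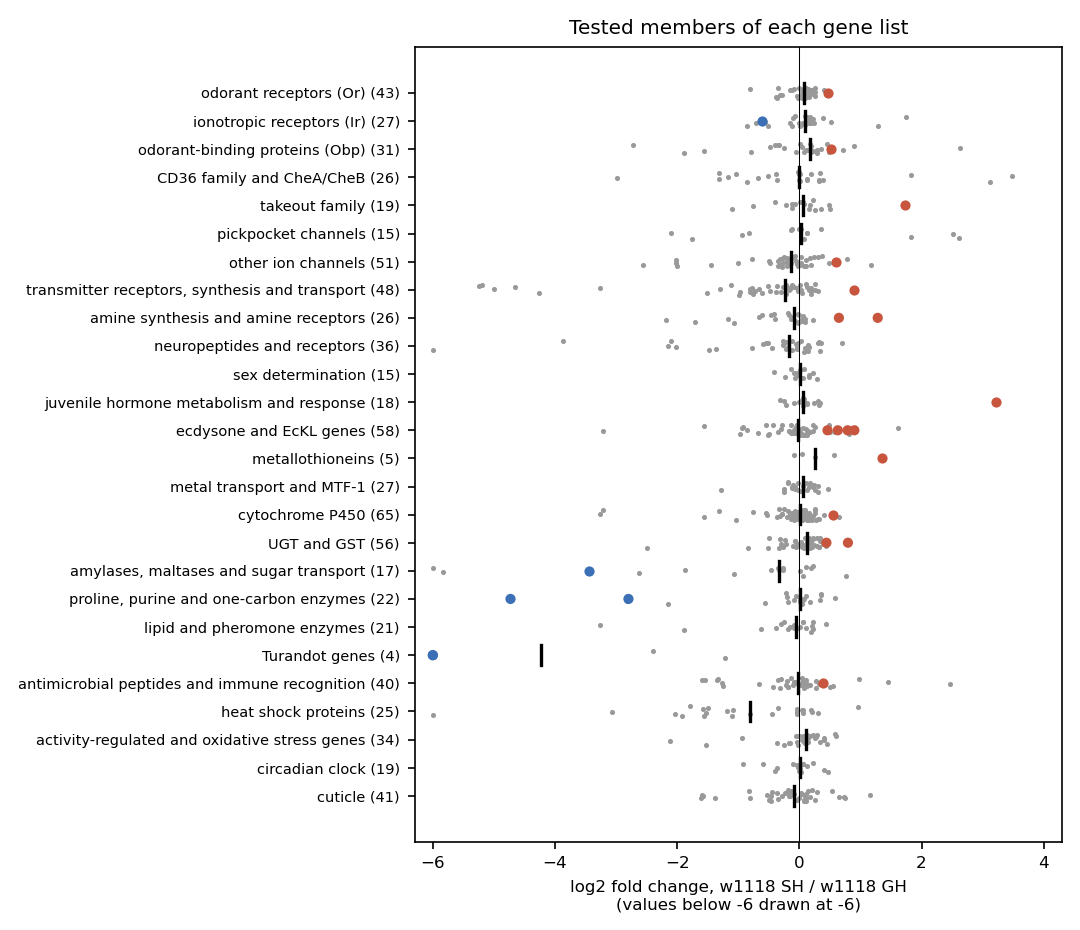
Log2 fold change of w1118 SH over w1118 GH for each tested member of 26 gene lists, with the number tested in brackets; large red and blue points passed an adjusted p of 0.05 and the black bars are list medians, with values below -6 drawn at -6. The medians of the Turandot genes and the heat shock proteins lie at -4.23 and -0.81, and those of the other lists between -0.34 and 0.26.

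The 25 tested heat shock protein genes had a median log2 fold change of -0.81. At an unadjusted p under 0.05, 10 were lower and 2 higher, against 929 and 709 of all 10358 genes. edgeR and limma voom called 0 of them, and DESeq2 1. w1118 GH replicate 1 set the Hsp70 values. Hsp70Ab was at 206, 12.97 and 26.3 RPKM in w1118 GH and at 11.8, 24.3 and 24.1 RPKM in w1118 SH, so that replicates 2 and 3 lay within or near the single-housed range. Hsp70Aa, Hsp70Bb, Hsp70Bbb and Hsp70Bc, near-identical copies among which reads are hard to divide, were also highest in w1118 GH replicate 1, and in these replicate 3 lay below w1118 SH replicates 2 and 3. Hsp60C, a testis chaperone gene, was at 18.5 RPKM in w1118 GH replicate 2 and at 0 in the other 5 libraries. Without that replicate the median of the list was -0.44.

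Leaving out w1118 GH replicate 2 also added calls. Est-6, the esterase of the male ejaculatory duct that also acts on odorants in the antenna, overlaps thoc6 and was at 972, 1256 and 881 RPKM in w1118 GH and at 1323, 1347 and 1260.3 RPKM in w1118 SH. Its log2 fold change was 0.34 (adjusted p = 0.14) with the replicate and 0.50 (adjusted p = 0.023) without it. fng, a glycosyltransferase that modifies Notch and overlaps CG10589, and gb, which encodes a transporter, moved from 0.41 to 0.50 (adjusted p = 0.043 without it) and from 0.52 to 0.62 (0.046). CG7675 and CG15923, which overlaps bon, were lower in w1118 SH, by log2 fold changes of -0.81 (adjusted p = 0.037) and -0.69 (0.040) without the replicate, against -0.57 for each with it. CG7675 was at 29.7, 16.1 and 30.6 RPKM in w1118 GH, the second value being that of replicate 2, and at 15.7, 18.6 and 17.3 RPKM in w1118 SH.

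The group-housed mutants allow the single-housed values to be set beside 8 further libraries, without separating housing from genotype. All 3 w1118 SH libraries lay above all 8 mutant libraries for 39 of the 71 genes that rose, as for 8.48% of all genes tested, and below all 8 for 22 of the 32 that fell, as for 8.88% of all genes. Since single-housed values entered the choice of these genes, the counts are a description. MtnB was at 2.82 to 37.1 RPKM in the mutants, Jhe at 1.69 to 15.9 RPKM, amd at 30.3 to 128 RPKM and Jhbp7 at 0.549 to 2.71 RPKM, all under the lowest w1118 SH library. For MtnB and Jhbp7 every w1118 GH library lay above all 8 mutants as well, so this gap is not particular to single housing. For Jhe and amd the w1118 GH values overlapped the mutant range. Other increases lay inside the mutant range: CG13659 was at 21.2 to 54.5 RPKM in the mutants, CG31288 at 99.5 to 176 RPKM and dmGlut at 28.2 to 46.1 RPKM, so that the w1118 GH libraries were the low ones. CG12986 was higher in all mutants, at 8.85 to 17.3 RPKM, than in w1118 GH, at 3.79 to 4.20 RPKM.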

How the data were processed

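Antennal RNA libraries were non-stranded, poly(A)-selected and sequenced on a NovaSeq. The authors trimmed, mapped to dm6, deduplicated and filtered the reads and counted them per gene with featureCounts, and the deposited counts are not normalised. The annotation release and tool versions are not given in the sources used here. Counts were tested with edgeR 4.0.16 in R 4.3.3 (TMM, filterByExpr, quasi-likelihood F test, contrast w1118 SH minus w1118 GH) over 14 libraries in 5 groups, leaving out fruLexA/fru4-40 replicate 1 since the study used 2 of 3 such libraries, with Benjamini-Hochberg adjustment over 10358 genes and calls at 0.05. The scripts were tested on simulated data. DESeq2 1.42.0, limma 3.58.1 (voom with sample weights), other scalings, filters, thresholds and sets of libraries were tried as alternatives, including each wild-type library left out. Ratios of 1 to 3 counts carry exact 95% intervals, which cover counting error only. Wild-type libraries differed by more than sampling noise (chi-square per degree of freedom from 5.94 to 36.7). Exon overlaps were taken from the exon positions given with the deposited counts. With 3 libraries against 3, a permutation test could not go below p = 0.10.

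Genes named were the 12 largest increases and decreases among calls without overlap between groups, called members of gene lists, genes named by the study or an earlier account, and up to 5 in each direction called only without w1118 GH replicate 2, with exceptions stated. Members and lists were chosen with earlier results of these data known. The columns of the tables held no authors' comparisons.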

Additional observations from a re-analysis of the deposited data

How the results depend on the processing

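All 103 called genes kept their direction under every alternative that tested them. Since their groups did not overlap, this was nearly fixed in advance and is no support for the calls. The count of calls moved with the tool and the libraries. Against 103 with edgeR on 14 libraries, DESeq2 called 347, limma voom with sample quality weights 338, edgeR on the 6 wild-type libraries 13 and DESeq2 on them 601, and adding the left-out mutant library gave 16. The decreases depended more on the tool than the increases. Of the 71 increases, DESeq2 called 71, limma voom 71 and edgeR on the 6 wild-type libraries 11. Of the 32 decreases, DESeq2 called 32, limma voom 18 and edgeR on the 6 wild-type libraries 1. That last fit tested 97 of the 103 genes. RLE size factors gave 102, total counts 96, no filter 105 and at least 10 counts in each wild-type library 118. Thresholds of 0.01, 0.01 after multiplying by 4, and 0.1 gave 7, 3 and 236. Leaving out 1 wild-type library gave 5 to 215. The share of calls that were higher in w1118 SH was 68.9% with edgeR, 51.9% with DESeq2, 48.1% with DESeq2 on the wild-type libraries, 78.0% with at least 10 counts, and 39.6% (57 of 144) without w1118 GH replicate 1, so that calls in the last set, as with DESeq2 on the wild type, were mostly lower. Without w1118 GH replicate 2, against 41 calls, DESeq2 gave 191, the 5 wild-type libraries alone 0 (1267 genes at an unadjusted p under 0.05), the replicate block 67, and leaving out a further library, an alternative added after seeing the data, 3 to 139. Deviations of same-numbered libraries from their group means correlated at 0.03, -0.0036 and 0.19, and those of the other pairs at -0.14 to 0.079. Whether same-numbered libraries shared a culture or an hour of dissection was not tested. A replicate block gave 165 calls in the fit with all 3 pairs. The cause of these shifts was not tested. For the genes named, 686 alternatives kept the side of the threshold, 317 lost the call, 41 gained it and 0 turned the direction. Counts under 3 in a library limit what can be said of the lowest genes.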

Other observations

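DIP-alpha, a cell adhesion gene of the immunoglobulin superfamily picked out after its values were seen, fell in w1118 SH (log2 fold change -0.43 ± 0.09, adjusted p = 0.043 with edgeR; 0.074 without w1118 GH replicate 2). Its exons overlap those of CG2875 and ppk8. It was at 14.5, 14.99 and 17.6 RPKM in w1118 GH and at 12.0, 12.3 and 10.7 RPKM in w1118 SH, while the 8 mutant libraries were at 0.449 to 0.839 RPKM.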
